A study of Rattus norvegicus with 15 samples.

Results

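Pld1 and Ptk2b, both genes of signalling enzymes, were followed across 3 stages of enamel formation in the rat incisor. They were taken as the probes whose transcript identifier is a RefSeq transcript of either gene, which gave 1 probe for Pld1 (A_44_P338970, transcript NM_030992) and 1 for Ptk2b (A_44_P482346, transcript NM_017318). These are 2 of the 38 genes that could be named on an array of 38321 probes. The pair was chosen because the signal of Pld1 rose in steps while that of Ptk2b rose in maturation only. The levels of both genes and their differences between stages chose the pair, and are given as a description without a test.

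RNA came from the enamel organ, the epithelium that forms enamel, of the lower incisor of Wistar Hannover rats aged 4 weeks. The 3 groups were the cervical loop, the growing end of the tooth which holds the progenitors of ameloblasts, the cells that form enamel, the secretory stage, in which ameloblasts lay down the enamel proteins, and the maturation stage, in which the proteins are removed and mineral is added. No group carried a genetic change or a treatment. Each stage had 5 samples, each on its own 1-colour array, and the series design names 5 rats; whether samples with the same number came from the same rat is not stated in the labels.

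Stages follow the tissue label. In the sample titles secretory and maturation are exchanged for 8 of the 15 arrays, replicates 2 to 5 of both, so that each direction between these stages rests on the tissue label. Per array, 67.4% to 78.9% of spots were well above background and none were saturated; the number of arrays, 5 a stage, limits the precision. The cervical loop arrays had a scan day of their own, so that for them stage and day of scanning cannot be told apart. None of the 29 marker genes listed for ameloblasts of either stage, progenitors, odontoblasts and mesenchyme, blood, vessels, muscle and nerve could be named on the array, and the labelled tissue was therefore not checked against markers.

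Phospholipase D1, the product of Pld1, cleaves phosphatidylcholine into choline and phosphatidic acid, a lipid that acts both as a signal and in the budding and fusion of membranes. Small GTPases of the Arf family and protein kinase C activate it, and it is known for its part in vesicle traffic, exocytosis and endocytosis. Ptk2b encodes Pyk2, a non-receptor tyrosine kinase of the focal adhesion kinase family. Pyk2 responds to calcium and to G protein-coupled receptors, phosphorylates itself, recruits Src and passes the signal on to MAP kinases and the actin cytoskeleton. Secretory ameloblasts release matrix proteins by exocytosis, and maturation ameloblasts take up protein fragments and move calcium and other ions.

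Pld1, the lipid enzyme, stood at 3 separate levels. In the cervical loop its processed signal, the background-subtracted brightness of the probe, was 365, 470, 639, 269 and 733 in replicates 1 to 5. In the secretory stage it was 834, 1014, 990, 1553 and 963. In maturation it was 3569, 3866, 3901, 4197 and 4300. All secretory arrays lay above all cervical loop arrays, and all maturation arrays above all secretory arrays, before any scaling between arrays.

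The same order held on the normalized scale, which is the log2 processed signal minus the 75th percentile of the array. Pld1 was at -0.10 ± 0.36 in the cervical loop, 1.51 ± 0.41 in the secretory stage and 2.99 ± 0.06 in maturation (SD, n = 5 each). The secretory stage was 1.61 above the cervical loop on this log2 scale (SE 0.19), or 3.04-fold. Maturation was a further 1.48 above the secretory stage (SE 0.19), or 2.79-fold, and 3.09 above the cervical loop (SE 0.19), or 8.49-fold. Of the log2 distance from cervical loop to maturation, 52.1% was reached by the secretory stage and 47.9% after it, so that both steps were of similar size.

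The gaps between the stages of Pld1 were wider than the steps between replicates. The lowest secretory array, replicate 1 at 0.98, was 0.69 above the highest cervical loop array, replicate 5 at 0.29. The lowest maturation array, replicate 5 at 2.91, was 0.83 above the highest secretory array, replicate 4 at 2.07. Among all 28863 features tested, 14.6% had every secretory array above every cervical loop array, and 20.3% every maturation array above every secretory array. The gene was chosen on these contrasts, and nothing is read from its place among these shares.

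**Figure D1:**
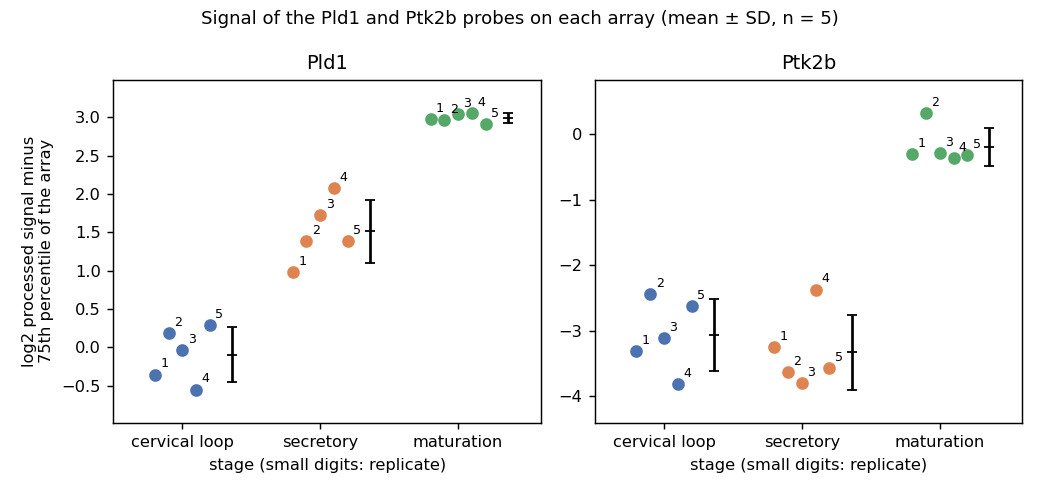
Normalized log2 signal of the Pld1 probe (left) and the Ptk2b probe (right) on each of the 15 arrays, with the stage on the horizontal axis; small digits give the replicate and black bars the mean ± SD of 5 arrays. Pld1 sits at 3 levels that do not overlap (means -0.10, 1.51 and 2.99), while Ptk2b sits at overlapping levels in cervical loop and secretory stage (means -3.06 and -3.33) and higher in maturation (-0.19); the axes of the panels differ.

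Ptk2b, the tyrosine kinase gene, had low signals before maturation. Its processed signal in the cervical loop was 47.0, 76.6, 75.9, 28.1 and 97.2 in replicates 1 to 5. In the secretory stage it was 44.3, 31.1, 21.4, 71.2 and 30.9. In maturation it was 365, 622, 389, 393 and 459. The secretory arrays spread over much the same range as the cervical loop arrays, and the lowest maturation array was above every array of both other stages.

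On the normalized log2 scale Ptk2b was at -3.06 ± 0.55 in the cervical loop, -3.33 ± 0.57 in the secretory stage and -0.19 ± 0.29 in maturation (SD, n = 5 each). The secretory stage differed from the cervical loop by -0.27 (SE 0.28), less than the SD of either stage. Single pairs of arrays differed by between -1.37 and 1.44, so the ranges overlapped nearly in full. Maturation was 3.14 above the secretory stage (SE 0.28), or 8.82-fold, and 2.87 above the cervical loop (SE 0.28), or 7.32-fold. The lowest maturation array, replicate 4 at -0.36, stood 2.01 above the highest secretory array, replicate 4 at -2.37, and 2.08 above the highest cervical loop array, replicate 2 at -2.44. Every maturation array was above every cervical loop array for 14.4% of all features.

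The order of the levels was thus cervical loop, secretory and maturation for Pld1, with no overlap between neighbours. For Ptk2b the cervical loop and the secretory stage, its neighbours at the low end, did not differ beyond their spread, and their order depended on the setting. The secretory stage was 0.05 above the cervical loop with normexp correction, an alternative that models background and adds a constant of 50. With the constant set to 0, a setting chosen after seeing the data, the difference was -0.19, with quantile normalization -0.01 and with scaling to the median -0.04. In an enamel organ sample, fewer cells of a type and less RNA per cell cannot be told apart, and this applies to every level given here.

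Each gene was measured by 10 spots of its probe on every array, so that the error of the spots can be set apart from that between samples. All 150 spots of either gene over the 15 arrays were well above background. Within an array, the processed signals of the spots of Pld1 had a coefficient of variation between 1.85% and 9.997%, with a median of 5.56%. For Ptk2b it lay between 2.21% and 14.56%, with a median of 5.56%, and was highest on secretory replicate 2. Between the arrays of a stage, before scaling, the coefficient of variation of Pld1 was 38.6% in the cervical loop, 26.02% in the secretory stage and 7.31% in maturation. For Ptk2b it was 42.0%, 48.7% and 23.4%. Before scaling, the arrays of each stage thus differed by more than the spots of any one of its arrays. The margin was small for Pld1 in maturation, where the spots of one array varied by up to 7.05%. These between-array values include differences in the brightness of whole arrays, which scaling takes out. After scaling, the SD of Pld1 in maturation was only 0.06 on the log2 scale, so the margin is not shown for the scaled signal.

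The distance from background differed between the genes. The raw median signal of the Pld1 spots was 14.03 to 29.2 times the local background in the cervical loop, 35.7 to 74.8 times in the secretory stage and 176 to 209 times in maturation. For Ptk2b the raw signal was 2.44 to 5.25 times the local background in the cervical loop and 1.77 to 4.77 times in the secretory stage, against 20.04 to 32.6 times in maturation. The low levels of Ptk2b were thus measured close to background. With normexp correction the rise of Ptk2b from secretory stage to maturation was 1.96 in place of 3.14 on the log2 scale, and from cervical loop to maturation 2.01 in place of 2.87. With the added constant set to 0 these were 2.86 and 2.66. The Pld1 differences were 1.45, 1.48 and 2.93 with normexp correction, close to those above.

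**Figure D2:**
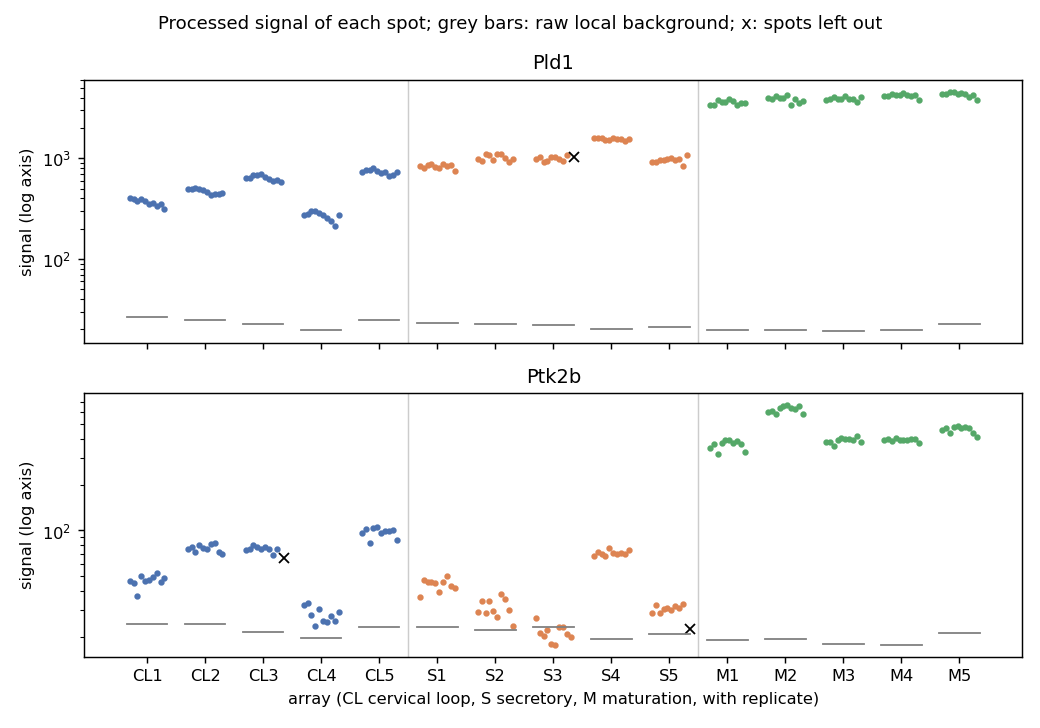
Processed signal of each of the 10 spots per array for Pld1 (top) and Ptk2b (bottom) on a log axis, arrays ordered by stage and replicate, colours as the stage; grey bars are the mean raw local background and crosses the 1 spot of Pld1 and 2 spots of Ptk2b left out as outliers. The spots of one array lie close together compared with the distance between stages that do not overlap, and the Ptk2b spots of cervical loop and secretory arrays lie nearer the background bars than those of maturation arrays. The plotted signal has background subtracted and the bars are raw background, so the distance to a bar is not the signal over background.

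The spread between replicates was not the same in all stages. The normalized log2 signal of Pld1 had an SD of 0.36 in the cervical loop, 0.41 in the secretory stage and 0.06 in maturation, where the arrays spanned 0.15 on the log2 scale. In maturation 1.46% of all features had an SD as small or smaller, and 72.7% of features had a larger SD in the cervical loop than in maturation. This narrow spread depends in part on the scaling. With scaling to the median the SD of Pld1 in maturation was 0.16 and the span 0.41, and 19.0% of features had an SD as small or smaller. The SDs in the cervical loop and secretory stage were then 0.40 and 0.41. With quantile normalization and normexp correction the SD in maturation was 0.06 and 0.05, and the span 0.15 and 0.13. The share of features with an SD as small or smaller was then 4.22% and 9.21%. The median SD of all features was 0.31, 0.25 and 0.21 in the 3 stages. Both genes were lowest on cervical loop replicate 4 and highest on secretory replicate 4 within those stages; 15.0% and 19.3% of all features had their lowest and highest value there.

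One scan held arrays of both later stages, but only 1 of maturation, and its values are given as a description. Since every maturation array lay above every secretory array, the order within the scan follows from that over all arrays. On that scan Pld1 was at 0.98, 1.39 and 1.72 on secretory replicates 1 to 3 and at 2.91 on maturation replicate 5. Ptk2b was at -3.26, -3.64 and -3.81 on the secretory arrays and at -0.32 on the maturation array. The difference was 1.54 for Pld1 and 3.25 for Ptk2b, against 1.48 and 3.14 over all arrays. The other maturation arrays shared a scan of their own.

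The split between a rise in steps and a rise in maturation only was counted over all features. A rise in steps was taken as at least 2-fold and an adjusted p under 0.05 at both steps (limma, Benjamini-Hochberg over all features). It was found for 143 of 28863 features, or 0.495%. Pld1, chosen for such a rise, was the only one of the 37 named genes tested among them, and nothing is read from its being there. A rise in maturation only was taken as at least 2-fold and past the same threshold against both other stages, with these less than 2-fold apart. It was found for 1077 features, or 3.73%. Besides Ptk2b, which was chosen for it, these held 5 named genes. They were Enpp1, whose enzyme makes pyrophosphate, the growth factor gene Gdnf, Hprt1 of purine salvage, and the glycolytic genes Ldha and Pgk1. Both counts follow the scaling: with normexp correction they were 90 and 711, and with scaling to the median 245 and 1991.

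**Figure D3:**
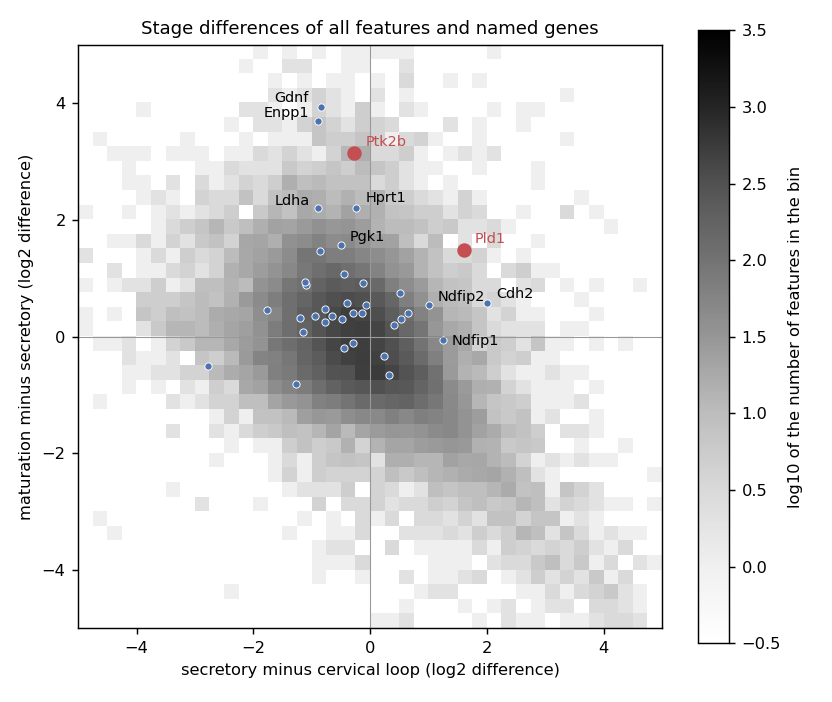
Difference from cervical loop to secretory stage (horizontal, log2) against that from secretory stage to maturation (vertical, log2) for 28670 of the 28863 features tested (grey, number of features per bin on a log scale; 193 lie outside the axes), with the 37 named genes as points. Pld1 lies at 1.61 and 1.48, in the sparse upper right where both differences are positive, and Ptk2b at -0.27 and 3.14, near the vertical zero line; the secretory arrays enter both axes, with opposite sign.

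Named genes with profiles most like those of Pld1 and Ptk2b were ranked by the root mean square difference over the 15 arrays, after each gene's own mean was taken off. This measure is in log2 units and weighs both shape and size. Nearest to Pld1 was Cdh2, which encodes the adhesion molecule N-cadherin, at 0.52, followed by Ndfip2 at 0.65, Trim2 at 0.78, Hprt1 at 0.79 and Ndfip1 at 0.84. Cdh2 stood 2.00 higher in the secretory stage than in the cervical loop and 0.57 higher again in maturation, so that most of its rise came with the first step. Ndfip2, an adaptor of Nedd4-family ubiquitin ligases, differed by 1.01 and 0.55 at these steps, and its paralog Ndfip1 by 1.25 and -0.06. Trim2, itself a ubiquitin ligase gene, differed by 0.52 and 0.75. None of these 5 had steps of at least 2-fold at both points, as Pld1 had.

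Nearest to Ptk2b was Enpp1 at 0.50, followed by Hprt1 at 0.58, Gdnf at 0.68, Ldha at 0.79 and Pld1 itself at 0.90. Enpp1 differed by -0.90 (SE 0.15) from cervical loop to secretory stage, where Ptk2b differed by -0.27, and it stood 3.70 higher in maturation than in the secretory stage. Hprt1 differed by -0.24 and 2.21 at the 2 steps and Ldha by -0.90 and 2.20. Gdnf, at -0.83 and 3.93, had a signal well above background on only 2 of 5 secretory arrays. Over all features the median distance was 1.48 from Pld1 and 1.66 from Ptk2b, and 83 and 67 features lay within 0.5. The nearest were probes with an identifier of the array maker only, ASRNV20023611 for Pld1 at 0.24 and ASRNV20029906 for Ptk2b at 0.32. The former differed by 1.17 and 1.80 at the 2 steps, and the latter by -0.12 and 3.15.

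**Figure D4:**
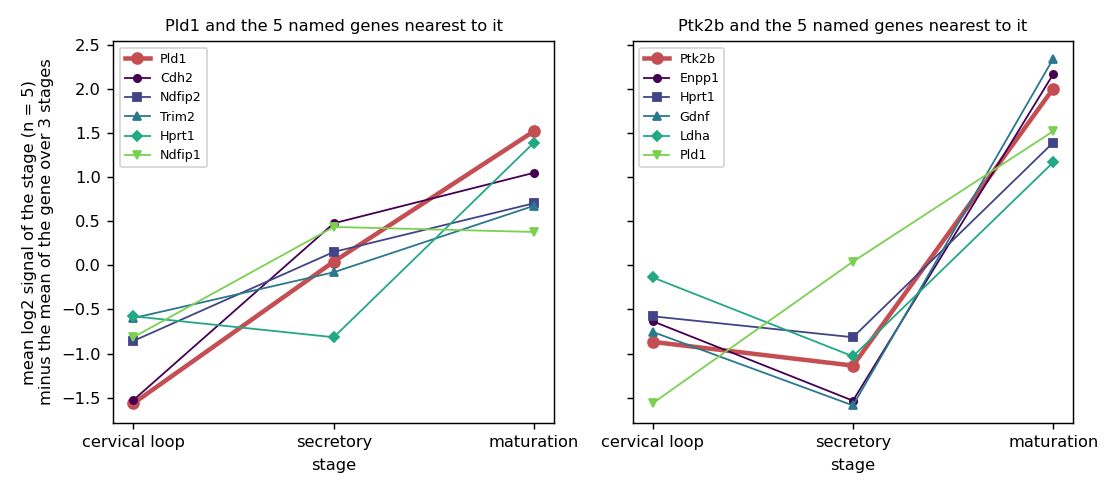
Mean normalized log2 signal of each stage (n = 5 arrays) minus the gene's mean over the 3 stages, for Pld1 (left, thick line) and Ptk2b (right, thick line) with the 5 named genes nearest to each. Pld1 climbs by 1.61 and 1.48, while Cdh2 gains 2.00 and then 0.57; Ptk2b and Enpp1, Hprt1, Gdnf and Ldha share a low or falling first step and a rise of at least 2.20 into maturation.

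Of the partners of both enzymes few could be followed. The lists held 97 genes besides the pair: PLD isoforms and their GTPase and kinase activators, enzymes and targets of phosphatidic acid, the focal adhesion kinase family with its scaffolds, calcium and G protein inputs, MAP kinase outputs, and growth factors upstream. Dlg4, Fgf2 and Gdnf were the only 3 named on the array. Neither Pld2, the second classical phospholipase D gene, nor Ptk2, which encodes focal adhesion kinase, was among them, and both are not analysed here. The lists were chosen with earlier results of these data known, so the calls and adjusted p-values of the 3 named partners are a description. From cervical loop to secretory stage all 3 partners fell, as did 36.9% of all features (25.3% with scaling to the median); the fall of Gdnf was lost under each of the 3 other scalings and corrections. From secretory stage to maturation Fgf2 and Gdnf rose, as did 25.2% of features (33.3% with scaling to the median). The rise of Fgf2 was lost with normexp correction and kept with quantile normalization and scaling to the median. From cervical loop to maturation Gdnf rose and Dlg4 and Fgf2 fell, where 20.5% of features rose and 42.6% fell (37.4% and 22.9% with scaling to the median).

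Dlg4 encodes PSD-95, a scaffold protein that binds Pyk2 at synapses. Its normalized log2 signal was -2.71 ± 0.25 in the cervical loop, -3.85 ± 0.18 in the secretory stage and -3.77 ± 0.08 in maturation (SD, n = 5 each). It fell by 1.15 from cervical loop to secretory stage (limma adjusted p = 3.13e-06) and differed by 0.08 from there to maturation (adjusted p = 0.601), where Ptk2b differed by 3.14. With normexp correction its first difference was -0.27 (limma adjusted p = 0.0343), and with quantile normalization and scaling to the median it was -0.93 and -0.92. The secretory level of Dlg4 was below that of Ptk2b, -3.33, which lay close to background, so the size of its fall is uncertain.

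Of the growth factor genes, Gdnf was higher in maturation than in the cervical loop (difference 3.10, limma adjusted p = 1.72e-06) and Fgf2 lower (-1.31, adjusted p = 4.42e-06). Fgf2, whose receptor is a tyrosine kinase that signals through phospholipases and MAP kinases, fell by 1.77 from cervical loop to secretory stage (limma adjusted p = 2.79e-07) and rose by 0.46 into maturation (adjusted p = 0.0225). Its secretory level, -4.62, was below that of Ptk2b, -3.33, which lay close to background, so the size of both differences is uncertain. The rise into maturation did not hold with normexp correction, where the difference was -0.14 (limma adjusted p = 0.314), and the first difference was -0.40. With quantile normalization and scaling to the median the rise was 0.71 and 0.67 (limma adjusted p = 0.00189 and 0.00177). Gdnf, whose signal runs through the Ret tyrosine kinase, was at -5.12 ± 0.63 in the cervical loop, -5.96 ± 0.55 in the secretory stage and -2.02 ± 0.63 in maturation (SD, n = 5 each). It rose by 3.93 from secretory stage to maturation (limma adjusted p = 1.5e-07; 1.09 with normexp correction). Since only 2 of its 5 secretory arrays were well above background, the size of this rise is uncertain. Its fall before that, a difference of -0.83 (adjusted p = 0.0482), was lost with all 3 other scalings and corrections, with differences between -0.61 and 0.19 and adjusted p between 0.163 and 0.557.

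Outside the lists, the array named 2 genes of related function, chosen after the names on the array were read. Napepld encodes a phospholipase D of another protein family, which makes N-acylethanolamines. Its differences were -0.40 and 0.57 at the 2 steps (limma adjusted p = 0.0169 and 0.00177). With normexp correction the signs were turned, at 0.19 and -0.14, and neither passed the threshold. With quantile normalization and scaling to the median the second step was 0.84 and 0.79 (limma adjusted p = 1.82e-04 and 2.55e-04). The first step was then -0.01 and -0.18 and did not pass. The secretory level of Napepld, -4.72, was below that of Ptk2b, -3.33, which lay close to background. P2rx2, the gene of an ATP-gated channel that admits calcium, differed by -0.47 and 0.30 (adjusted p = 0.166 and 0.378), within the spread of its arrays. Neither had a rise of the size seen for Pld1 or Ptk2b.

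The differences of both genes were recomputed under the other settings, and kept their directions, except with stages taken from the titles and for the small first difference of Ptk2b, which turned with normexp correction and its constant of 50 but not with a constant of 0. With the titles, maturation lay below the secretory stage, by -0.68 for Pld1 and -1.96 for Ptk2b, and the first difference of Ptk2b was 2.28. The title stages mix replicate 1, where title and tissue label agree, with replicates 2 to 5, where they are exchanged. On replicate 1, with 1 array per stage, Pld1 was at 0.98 in the secretory stage and 2.98 in maturation. Ptk2b was at -3.26 and -0.31 on these arrays. Leaving out any 1 array gave 1.47 to 1.74 and 1.35 to 1.62 for the steps of Pld1, and 3.01 to 3.38 for the rise of Ptk2b from secretory stage to maturation. The arrays of the stages compared did not overlap in these differences, so leaving out 1 array could not turn their direction.

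**Figure D5:**
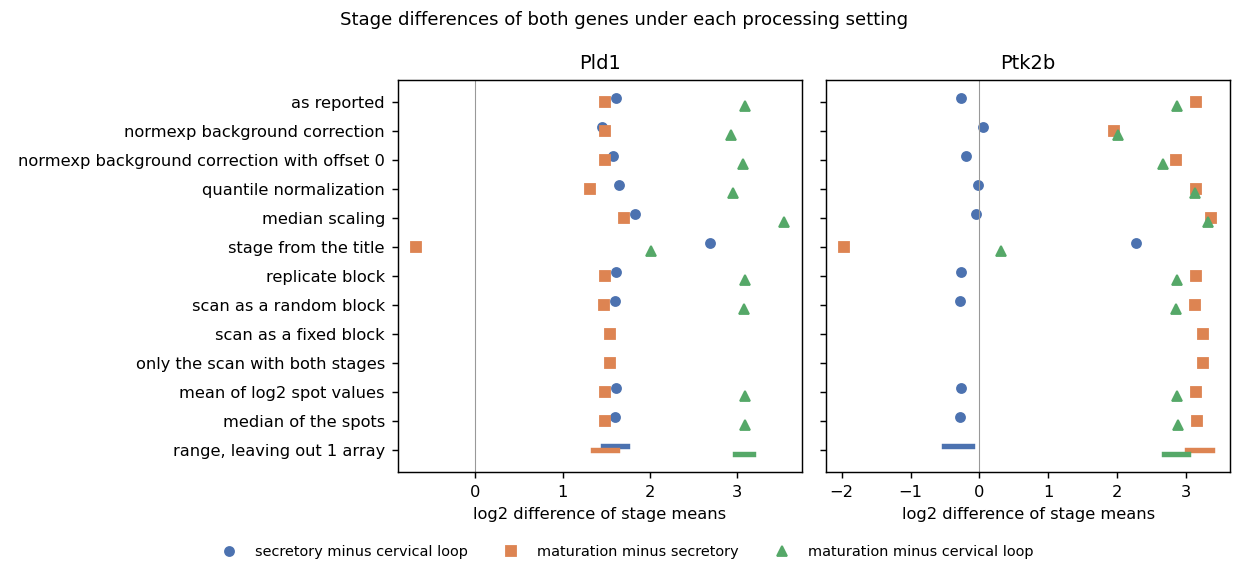
Log2 difference of stage means of Pld1 (left) and Ptk2b (right) under each processing setting (rows), with circles for secretory minus cervical loop, squares for maturation minus secretory and triangles for maturation minus cervical loop; bars in the last row span the values with 1 array left out. Apart from stages taken from the titles, the steps of Pld1 lie between 1.45 and 1.83 and between 1.31 and 1.70, while the rises of Ptk2b are smaller with normexp correction (1.96 and 2.01).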

How the data were processed

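Per the labels, total RNA was labelled with Cy3 on 1-colour arrays, and the submitters' processing notes name Agilent Feature Extraction 11.0.1.1 for the images. The deposited scanner files hold linear spot intensities, of which the processed signal is background-subtracted, and per the file headers other columns hold flags for spots well above background or uneven. Control spots were left out. Flagged outlier spots (107 to 276 per array) were left out too, except that a probe whose spots were all flagged kept them. Spots of a probe were averaged, and values were its log2 minus the 75th percentile of the array. The 28863 features tested were well above background (at least 50% of spots) on all 5 arrays of at least 1 stage; a gene took its brightest probe. One limma 3.58.1 fit (R 4.3.3, lmFit and eBayes) covered 15 arrays without a block, with Benjamini-Hochberg adjustment, a threshold of 0.05 and, where stated, 2-fold. It was tested on simulated data. Transcripts were named through RefSeq's GRCr8 gene table, without coordinates, since the array design is on another build. The 2 genes and the lists were chosen with earlier results of these data known. Named besides them are the 5 nearest named genes, the nearest unnamed probe and the list genes found. Alternatives were normexp correction, quantile and median scaling, title stages, replicate and scan blocks, other spot averages, no filter and each array left out. P-values set a difference against the spread between the 15 arrays, taken as independent, although the labels do not say whether same-numbered samples share a rat. The deposited series table was not used here.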

Additional observations from a re-analysis of the deposited data

Results flagged for a closer look

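Maturation replicate 2 stood apart from the other maturation arrays for Ptk2b. Its normalized log2 signal was 0.33 against -0.29 on the next array, and this gap was 0.897 of the stage's whole range, above the limit of 0.71 for 5 samples. It was the only such array among the 6 groups of 5 checked (2 genes in 3 stages), and chance alone marks about 1 group in 20. The processed signal there was 622, against 365 to 459 on the other maturation arrays, and its 10 spots varied by 4.82%. Pld1, at 2.96, was within its range on that array, and 21.4% of all features had their highest maturation value there. Without it, Ptk2b was 3.01 above the secretory stage and 2.74 above the cervical loop.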

How the results depend on the processing

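Of 58 differences of Pld1 and Ptk2b recomputed under settings other than leaving out an array, 48 moved by less than the SD between replicates. This tally includes the replicate block, which cannot move the differences in a balanced design. It also counts the same values, 1.54 for Pld1 and 3.25 for Ptk2b, under the fixed scan block and again within the single scan. With normexp correction Ptk2b in maturation was 1.96 above the secretory stage and 2.01 above the cervical loop; with scaling to the median, maturation minus cervical loop was 3.53 for Pld1 and 3.32 for Ptk2b. With stages from the titles, the differences for Pld1 were 2.69 (secretory minus cervical loop), -0.68 (maturation minus secretory) and 2.01 (maturation minus cervical loop), and for Ptk2b 2.28, -1.96 and 0.32; 0 features then passed in limma between secretory stage and maturation (7305 at an unadjusted p under 0.05), 11608 between cervical loop and maturation, and 0 showed either pattern of rise. Features with a rise in steps and in maturation only were 90 and 711 with normexp correction and 245 and 1991 with median scaling, against 143 and 1077. Over all features 16758, 17088 and 18200 changed in the 3 comparisons, of them 7018, 6479 and 8187 at least 2-fold. Between secretory stage and maturation 7954 passed with the scan as a fixed block and 3398 within the scan that held both stages, which takes the spread of its single maturation array from its secretory ones. The higher and lower calls were 6106 and 10652, 7281 and 9807, and 5903 and 12297; with median scaling, which took the all-feature median difference from -0.20, -0.12 and -0.28 to 0.03, 0.10 and 0.17, they were 8519 and 7296, 9616 and 6959, and 10806 and 6620, with quantile normalization 7563 and 8901, 7744 and 7924, and 7226 and 8564, and with normexp correction 7766 and 6002, 5975 and 13298, and 5586 and 9695. Same-numbered arrays of different stages deviated together in part: 8 of 15 pairs correlated above 0.1 across features, and 9 of 15 arrays correlated best with their own number. Of the pairs with different numbers, 6 of 60 correlated above 0.1. The median correlation was 0.11 for the same number and -0.04 for different numbers, and the highest was 0.29 and 0.25. With the replicate number as a block, 17172, 17536 and 18465 features changed, the differences of both genes were the same and the SE was 0.20 for Pld1 and 0.30 for Ptk2b. Leaving out 1 array gave 2.97 to 3.18 for Pld1 from cervical loop to maturation, and -0.51 to -0.11 and 2.68 to 3.03 for Ptk2b from cervical loop to secretory stage and to maturation. Signal over background limits the low Ptk2b levels.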
